A study of Mus musculus with 6 samples.

Results

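The 39 genes described here encode proteins that copy the genome in S phase or separate it in mitosis. They were chosen by name from a fixed list of 19 S-phase and 20 mitotic genes, and all 39 were found among the 37991 genes of the count tables and among the 21983 genes that passed the filter on low counts. RNA was sequenced from the dorsal telencephalon, the part of the forebrain that forms the cortex, of CD1 mouse embryos labelled E13.5. In the first group, 100 ng of the secreted growth factor FGF2 was injected into the ventricles of the telencephalon, and its 3 embryos are numbered 6, 7 and 8. The other group had received the vehicle, PBS with 0.1% BSA, and its 3 embryos are numbered 7, 8 and 9. All 6 embryos were injected, no uninjected embryo was analysed here, and each embryo gave 1 library, made from fixed cryosections in front of the hippocampus. The labels give E13.5 for the injection as well and do not give the time until collection. The study's title names folding of the mouse brain induced by FGF2 as its subject.

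Before a cell divides, the Mcm helicase is loaded on replication origins by Cdc6 and Cdt1, joined by the Gins complex and opened into forks on which the sliding clamp Pcna holds the polymerases. Entry into mitosis is driven by Cdk1 with cyclins A and B, and exit begins when Cdc20 activates the anaphase-promoting complex. In the neuronal lineage of the embryonic cortex, the dividing cells are the radial glia and the intermediate progenitors. Radial glia divide at the ventricle and intermediate progenitors mostly away from it. Within this lineage these RNAs therefore mark progenitors and not neurons. In bulk RNA, fewer dividing cells and less RNA per dividing cell cannot be told apart.

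Promoter sequences are shown because the S-phase and mitotic genes differ in the motifs that their known regulators bind. Promoters of 31 of the 39 genes (15 S-phase and 16 mitotic) were found in the RefSeq table of GRCm38.p6, each covering 250 bases before and 50 bases after the gene's start, and 2 of these genes, Mcm7 and Uhrf1, have more than 1 promoter there. An E2F motif (TTTGGCGC, TTTCCCGC, TTTGCCGC or TTTCGCGC on either strand) was found for 7 of 15 S-phase genes (Cdc6, Cdt1, Mcm3, Mcm5, Mcm6, Mcm7 and Uhrf1) and for 1 of 16 mitotic genes (Cdk1), against 2.26% of all 32851 promoters in the table. The CHR motif of genes bound by the DREAM and MYB-FOXM1 complexes (TTTGAA or TTCGAA on either strand) was found for 2 of 15 S-phase genes and 12 of 16 mitotic genes, against 19.2% of all promoters. CCAAT, on either strand, was found for 10 of 15 and 14 of 16, against 37.4%, and CHR together with CCAAT for 2 of 15 and 12 of 16, against 7.52%. No word of a motif is part of a word of another motif, and matches on both strands can overlap within a motif. The stretches below lie before the start (base -1 is the last base before it) and run 5′ to 3′ on the gene's strand, with matches to the motifs in capitals. For Mcm6 these are E2F (TTTGGCGC and, overlapping it, GCGCGAAA) and CCAAT (as ATTGG), for Cdc6 E2F (as GCGGGAAA), for Cdk1 E2F (TTTCGCGC), CHR and CCAAT, and for the other 3 genes CHR (TTTGAA or TTCAAA) and CCAAT.
Mcm6, bases -120 to -1, chr1:128359706-128359825, minus strand: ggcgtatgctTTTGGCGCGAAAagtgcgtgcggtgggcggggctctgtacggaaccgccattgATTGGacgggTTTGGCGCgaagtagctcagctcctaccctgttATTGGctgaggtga
Cdc6, bases -150 to -91, chr11:98908001-98908060, plus strand: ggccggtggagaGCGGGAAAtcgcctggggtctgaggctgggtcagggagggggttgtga
Cdk1, bases -140 to -1, chr10:69352913-69353052, minus strand: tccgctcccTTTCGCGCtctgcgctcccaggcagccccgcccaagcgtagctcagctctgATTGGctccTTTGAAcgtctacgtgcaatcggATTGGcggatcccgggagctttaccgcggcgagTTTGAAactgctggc
Kif11, bases -60 to -1, chr19:37376322-37376381, plus strand: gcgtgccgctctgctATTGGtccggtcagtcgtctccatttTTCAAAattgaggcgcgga
Ube2c, bases -100 to -1, chr2:164769829-164769928, plus strand: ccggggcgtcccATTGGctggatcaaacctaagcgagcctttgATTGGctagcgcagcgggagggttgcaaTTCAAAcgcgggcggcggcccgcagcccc
Cdc20, bases -60 to -1, chr4:118437344-118437403, minus strand: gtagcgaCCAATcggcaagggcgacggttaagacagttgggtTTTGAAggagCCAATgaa
A match describes letters in this window and is not evidence of binding, and a missing match says only that these letters are not in it.

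Total counts over all genes were 64631136 to 81532334 in the FGF2 libraries and 61489462 to 68101511 in the vehicle libraries. In vehicle 9 every non-zero count was even, against 51% to 51.9% of non-zero counts elsewhere. Reads of 4 Y-linked genes numbered 10475 to 16232 in the FGF2 embryos and vehicle 7, and 22 in each of vehicle 8 and vehicle 9, so embryo sex differed between the groups. FGF2 8 stood apart from the other FGF2 embryos, with a sample weight of 0.233 in a fit that weights libraries by their scatter, against 1.29 and 1.18 for FGF2 6 and 7 and 0.812 to 2.01 for the vehicle embryos. Setting FGF2 8 apart was decided together with the list of genes and not from this weight. Results are given with and without FGF2 8. The spans of 12 of the 39 genes overlap the span of another gene and can share its reads (Mcm7, Cdt1, Gins2, Tyms, Ccne2, Ccna2, Top2a, Kif20a, Tpx2, Nusap1, Ube2c and Cdc20).

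None of the 39 genes passed the test between FGF2 and vehicle embryos, and 1 FGF2 embryo had most of the low values. FGF2 8 had the lowest level of all 6 embryos in 36 of the 39 genes, all 20 mitotic genes and 16 of 19 S-phase genes. The exceptions were Gins1, Gins2 and Ccne2. FGF2 6 and 7 lay close to the vehicle embryos. Levels are in CPM, counts over the whole gene span scaled to the size of the library, and log2 fold changes are FGF2 over vehicle from edgeR's quasi-likelihood test, with Benjamini-Hochberg adjustment over all 21983 genes.

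**Figure D1:**
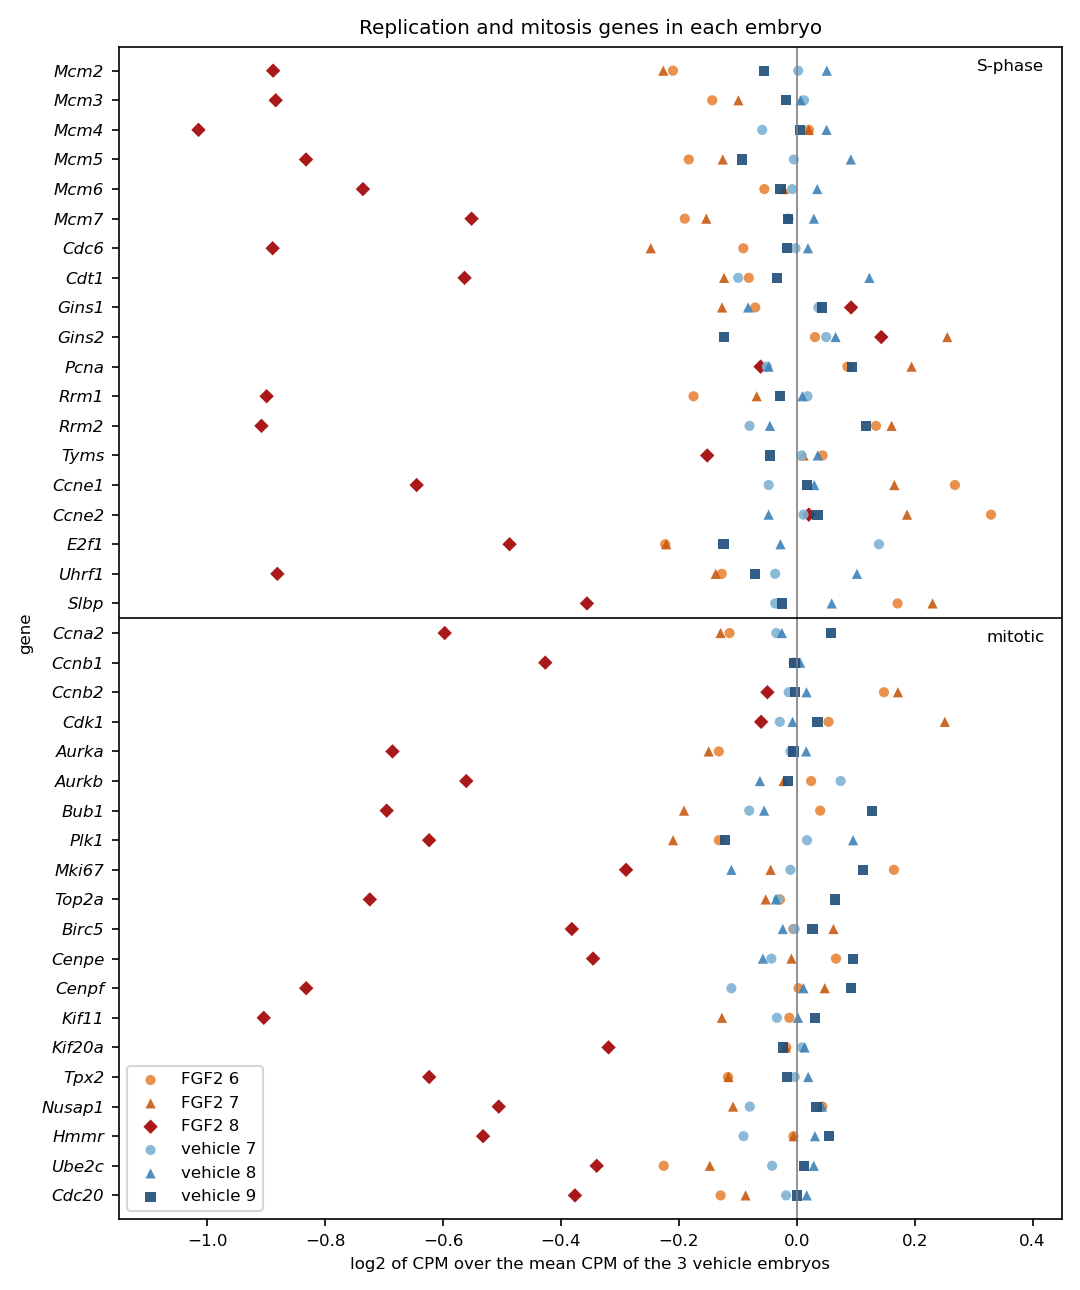
Level of each of the 39 genes (rows, S-phase above the line and mitotic below it) in each embryo, as the log2 of CPM over the mean CPM of the 3 vehicle embryos (horizontal axis). Points are single embryos. The dark red diamonds of FGF2 8 lie to the left of all other points in 36 rows and reach -1.01 for Mcm4, while FGF2 6 and 7 lie near the vehicle embryos.

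At an adjusted p of 0.05, 0 of 39 genes were called, where 3.63% of all tested genes were called (2.68% higher and 0.951% lower), and the smallest adjusted p was 0.166, for Ube2c. At an unadjusted p of 0.05, 4 were lower (Mcm2, Mcm7, E2f1 and Ube2c) and 0 higher, which is 10.3% lower, near the 8.13% of all tested genes, while 11.2% of these were higher. DESeq2 also called 0, with 5 lower and 0 higher at an unadjusted p of 0.05, where it called 9.76% of all genes and where 9.46% were lower and 11.4% higher unadjusted. With voom and sample quality weights, 0 were called, where 10.3% of all genes were called. Unadjusted, 5 were lower and 2 higher, where 12.7% of all genes were lower and 14.1% higher. limma on RPKM, the deposited measure scaled for gene model length, called 0, with 0 in either direction unadjusted, where it called 3.11% of all genes and 19.7% unadjusted. The log2 fold change was below 0 for 33 genes (84.6%), against 48.6% of all tested genes and 58.3% of the 11707 genes that averaged 10 CPM or more. The median was -0.24 for S-phase genes (range -0.41 to 0.18) and -0.18 for mitotic genes (range -0.31 to 0.09), against 0.01 for all tested genes.

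All 3 FGF2 embryos lay below all 3 vehicle embryos for 14 of the 39 genes (35.9%), against 13.6% of all tested genes and 20.1% of those averaging 10 CPM or more. The 14 were 8 S-phase genes (Mcm2, Mcm3, Mcm5, Mcm7, Cdc6, Rrm1, E2f1 and Uhrf1) and 6 mitotic genes (Ccna2, Aurka, Plk1, Tpx2, Ube2c and Cdc20). None of the 39 had all FGF2 embryos above all vehicle embryos, against 14.6% of all tested genes. The share with FGF2 8 lowest was 92.3%, against 28% of all tested genes and 36.3% of those averaging 10 CPM or more. With 3 embryos a group, the smallest two-sided p of an exact permutation test is 0.1.

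The 6 subunits of the Mcm helicase, which unwinds DNA at the fork, varied together. Mcm2 (chromosome 6, 88833469 to 88848774, NCBIM37) had 189, 187 and 118 CPM in FGF2 6, 7 and 8, against 219, 226 and 210.1 CPM in vehicle 7, 8 and 9. The groups did not overlap, but FGF2 6 and 7 were nearer to the vehicle embryos than to FGF2 8. Its log2 fold change was -0.41 ± 0.17 (SE, edgeR adjusted p = 0.248). Mcm7 (chromosome 5, 138605811 to 138613650), whose span overlaps 5 other gene spans, had 280.4, 288 and 218 CPM in FGF2 6, 7 and 8, against 317, 326 and 316 CPM in vehicle 7, 8 and 9. It showed the same order at -0.29 ± 0.11 (edgeR adjusted p = 0.225). In Mcm4, FGF2 8 stood farthest from the vehicle mean of all 39 genes, at 69.0 CPM, while FGF2 6 and 7 (141 CPM each) lay within the vehicle range of 134 to 144 CPM. The log2 ratio of FGF2 8 to the vehicle mean was between -1.01 (Mcm4) and -0.55 (Mcm7) over the 6 subunits, and that of the mean of FGF2 6 and 7 was between -0.22 (Mcm2) and 0.02 (Mcm4).

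The other licensing and firing genes did not behave alike. Cdc6, the helicase loader whose promoter stretch with an E2F match is shown above, had 38.9, 34.9 and 22.4 CPM in FGF2 6, 7 and 8, against 41.4, 42.0 and 41.0 CPM in vehicle 7, 8 and 9. All FGF2 embryos were below the vehicle embryos (log2 fold change -0.37 ± 0.19, edgeR adjusted p = 0.33). Cdt1, the partner of Cdc6 in loading, stood at 51.3 CPM in FGF2 8, with FGF2 6 and 7 at 71.7 and 69.6 CPM against 70.8 to 82.6 CPM in vehicle embryos. Gins1 and Gins2 are subunits of the complex that activates the helicase. Gins1 had 43.0, 41.4 and 48.1 CPM in FGF2 6, 7 and 8, against 46.3, 42.7 and 46.5 CPM in vehicle 7, 8 and 9. It was the 1 gene of the 39 with its highest level in FGF2 8. Gins2, at 119.7, 139.8 and 129 CPM against 121, 123 and 108 CPM in the same order, overlapped between the groups, over a span that overlaps 2 others.

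Among genes of the clamp and of nucleotide supply, the ribonucleotide reductase subunits were far below vehicle in FGF2 8 and the clamp was not. Rrm1, the large subunit of the enzyme that makes deoxyribonucleotides, had 217, 233 and 131 CPM in FGF2 6, 7 and 8, against 248, 246 and 239.9 CPM in vehicle 7, 8 and 9 (log2 fold change -0.34 ± 0.19, edgeR adjusted p = 0.395). Its small subunit, Rrm2, was at 104 CPM in FGF2 8, and at 215 and 219 CPM in FGF2 6 and 7, both above the vehicle range of 185 to 212 CPM. The values of FGF2 6 and 7 and of FGF2 8 thus lay on opposite sides of the vehicle embryos. Pcna had 187, 201 and 169 CPM in FGF2 6, 7 and 8, against 169.8, 170.1 and 188 CPM in vehicle 7, 8 and 9, and the groups overlapped (0.08 ± 0.09, edgeR adjusted p = 0.694). Tyms, which makes thymidylate, differed as little, at 81.0 ± 5.78 CPM in FGF2 embryos and 82.7 ± 2.35 CPM in vehicle embryos (SD, n = 3 each), a log2 fold change of -0.03 ± 0.08.

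The regulators of S-phase entry were split. E2f1, a transcription factor that induces S-phase genes, had 64.8, 64.8 and 53.9 CPM in FGF2 6, 7 and 8, against 83.3, 74.2 and 69.4 CPM in vehicle 7, 8 and 9. The groups did not overlap (log2 fold change -0.31 ± 0.10, unadjusted p = 0.02 and edgeR adjusted p = 0.168). The cyclins E activate Cdk2 at the start of S phase. Ccne1 had 38.4, 35.7 and 20.4 CPM in FGF2 6, 7 and 8, against 30.8, 32.5 and 32.2 CPM in vehicle 7, 8 and 9, so FGF2 6 and 7 were above all vehicle embryos and FGF2 8 was below them. Ccne2 had 51.6, 46.7 and 41.6 CPM against 41.3, 39.7 and 42.0 CPM in the same order, with FGF2 8 within the vehicle range. Neither was called, at a log2 fold change of -0.02 ± 0.21 for Ccne1 and 0.18 ± 0.10 for Ccne2 (edgeR adjusted p = 0.976 and 0.345).

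Uhrf1, which keeps DNA methylation at replicated sites, had 266, 264 and 158 CPM in FGF2 6, 7 and 8, against 283, 312 and 276 CPM in vehicle 7, 8 and 9. FGF2 8 was far below both its own group and the vehicle group (log2 fold change -0.34 ± 0.19, edgeR adjusted p = 0.381). Slbp, which binds the stem-loop of histone mRNA and supplies histones in S phase, had 85.2, 88.8 and 59.1 CPM in FGF2 6, 7 and 8, against 73.8, 78.9 and 74.4 CPM in vehicle 7, 8 and 9. Like Ccne1 and Rrm2, it had FGF2 6 and 7 above and FGF2 8 below all vehicle embryos (0.04 ± 0.15, edgeR adjusted p = 0.910).

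Of the mitotic cyclins and their kinase, Ccna2, which acts in both S phase and early mitosis, was the lowest relative to vehicle. Ccna2 (chromosome 3, 36463788 to 36471072) had 221, 219 and 158 CPM in FGF2 6, 7 and 8, against 234, 235 and 249 CPM in vehicle 7, 8 and 9 (log2 fold change -0.26 ± 0.13, edgeR adjusted p = 0.33). Ccnb1, the main cyclin of mitotic entry, had 181, 182 and 135 CPM in FGF2 6, 7 and 8, against 182, 183 and 182 CPM in vehicle 7, 8 and 9. All embryos but FGF2 8 had nearly the same level (log2 fold change -0.13 ± 0.12, edgeR adjusted p = 0.599). Cdk1, whose promoter stretch has E2F, CHR and CCAAT matches, had 125, 143 and 115 CPM in FGF2 6, 7 and 8, against 118, 119.8 and 123 CPM in vehicle 7, 8 and 9. Ccnb2 had 78.4, 79.7 and 68.3 CPM against 70.1, 71.5 and 70.6 CPM in the same order. In both, FGF2 6 and 7 were above the vehicle embryos and FGF2 8 was just below them, at a log2 fold change of 0.09 ± 0.09 for Cdk1 and 0.09 ± 0.08 for Ccnb2 (edgeR adjusted p = 0.651 and 0.572).

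The mitotic kinases had log2 fold changes of -0.31 to -0.16 and 0 of 4 were called. Plk1, which acts from spindle assembly to cytokinesis, had 121, 115 and 86.3 CPM in FGF2 6, 7 and 8, against 135, 142 and 122 CPM in vehicle 7, 8 and 9. FGF2 6 and vehicle 9 were nearly level, and the groups did not overlap (-0.31 ± 0.13, edgeR adjusted p = 0.26). Aurka, the kinase of spindle poles, averaged 70.2 ± 14.2 CPM in FGF2 embryos and 86.4 ± 0.851 CPM in vehicle embryos (SD, n = 3 each), with FGF2 8 at 53.7 CPM. In Aurkb, the kinase of the chromosomal passenger complex, and Bub1, a checkpoint kinase of kinetochores, FGF2 6 lay within the vehicle range and FGF2 8 below it, at 62.8 and 46.3 CPM. FGF2 7 lay within the range for Aurkb and below it for Bub1, at 65.6 CPM against 70.9 to 81.8 CPM in vehicle embryos.

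Among chromosome proteins, Mki67, the proliferation marker that coats mitotic chromosomes, had 467, 404 and 341 CPM in FGF2 6, 7 and 8, against 413, 385 and 450.2 CPM in vehicle 7, 8 and 9. FGF2 6 was the highest and FGF2 8 the lowest of all 6 embryos (log2 fold change -0.04 ± 0.13, edgeR adjusted p = 0.876). Top2a, the topoisomerase that disentangles sister chromatids, had 554, 545 and 342 CPM in FGF2 6, 7 and 8, against 553, 552 and 591 CPM in vehicle 7, 8 and 9, over a span that overlaps 2 others (-0.23 ± 0.18, edgeR adjusted p = 0.513). FGF2 8 was thus lower in Top2a than in Mki67 relative to vehicle, at a log2 ratio of -0.72 against -0.29. Birc5, the survivin subunit of the passenger complex, lay between at -0.38.

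For the kinetochore, Cenpf had 147, 152 and 82.5 CPM in FGF2 6, 7 and 8, against 136, 148 and 157 CPM in vehicle 7, 8 and 9. The FGF2 6 and 7 values lay within the vehicle range, and FGF2 8 alone did not (log2 fold change -0.21 ± 0.21, edgeR adjusted p = 0.643). Cenpe, a motor that aligns chromosomes, showed the same with a smaller distance, at 85.0 CPM in FGF2 8 against 104 to 115 CPM in vehicle embryos. Kif11, the motor that pushes spindle poles apart, had 137, 127 and 74.0 CPM in FGF2 6, 7 and 8, against 135, 139 and 141 CPM in vehicle 7, 8 and 9, a log2 fold change of -0.30 ± 0.21 (edgeR adjusted p = 0.478). Its log2 ratio of FGF2 8 to the vehicle mean, -0.90, was the lowest of the mitotic genes. Tpx2, which nucleates spindle microtubules, had 227, 227 and 159 CPM against 245, 249 and 243 CPM in the same order (-0.27 ± 0.14, edgeR adjusted p = 0.341). The log2 ratio of FGF2 8 to the vehicle mean was -0.53 for Hmmr, a spindle-binding hyaluronan receptor, -0.51 for Nusap1, a spindle-bundling protein, and -0.32 for Kif20a, a motor of cytokinesis.

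The partners of the anaphase-promoting complex had low spread and groups that did not overlap. Ube2c (chromosome 2, 164595398 to 164604322), the enzyme that supplies ubiquitin to the complex, had 195, 206 and 181 CPM in FGF2 6, 7 and 8, against 222, 233 and 230.4 CPM in vehicle 7, 8 and 9. FGF2 8 was only slightly below FGF2 6 here (log2 fold change -0.24 ± 0.08, unadjusted p = 0.0196 and edgeR adjusted p = 0.166). Cdc20, the activator of the complex, had 109, 112 and 91.8 CPM in FGF2 6, 7 and 8, against 118, 121 and 119 CPM in vehicle 7, 8 and 9 (-0.19 ± 0.09, edgeR adjusted p = 0.298). Both promoter stretches shown above hold CHR and CCAAT, as that of Kif11 does, whose level in FGF2 8 was much lower relative to vehicle (-0.90) than those of Ube2c (-0.34) and Cdc20 (-0.38).

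S-phase and mitotic genes had similar mean levels in each embryo. The mean log2 level of the 19 S-phase genes, relative to the vehicle mean, was -0.02, -0.02 and -0.55 in FGF2 6, 7 and 8, against -0.01, 0.03 and -0.02 in vehicle 7, 8 and 9. That of the 20 mitotic genes was -0.02, -0.04 and -0.49 in FGF2 6, 7 and 8, against -0.03, 0.00 and 0.03 in vehicle 7, 8 and 9. FGF2 8 was the lowest in both, and the other 5 embryos lay close together. The S-phase mean minus the mitotic mean was -0.01 ± 0.04 in FGF2 embryos and 0.00 ± 0.04 in vehicle embryos (SD, n = 3 each), and -0.06 in FGF2 8, against a vehicle range of -0.05 to 0.03. These means describe chosen genes and were not tested. With the deposited RPKM the means in FGF2 8 were -0.52 for S-phase and -0.46 for mitotic genes, and those of FGF2 6 and 7 were 0.02 to 0.05.

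**Figure D2:**
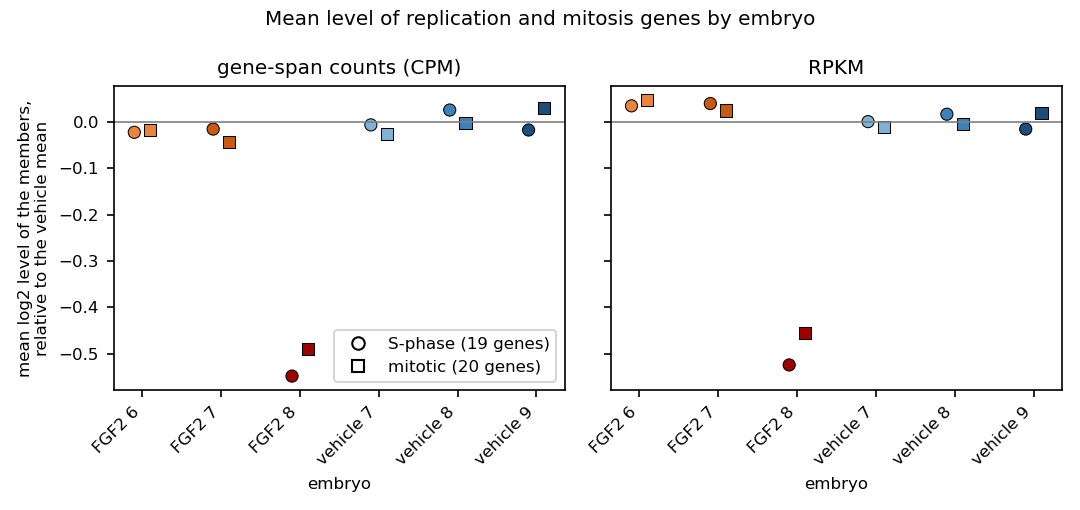
Mean log2 level of the 19 S-phase genes (circles) and the 20 mitotic genes (squares) in each embryo, relative to the mean of the vehicle embryos, from gene-span counts (left panel) and from the deposited RPKM (right panel). FGF2 8 is near -0.5 in both panels and the other 5 embryos are near 0.

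The genes differed in how far FGF2 8 stood from the others. Its log2 ratio to the mean of FGF2 6 and 7 had a median of -0.67 over S-phase genes and -0.46 over mitotic genes, against 0.00 over all tested genes. Rrm2, Mcm4, Ccne1, Cenpf and Kif11 were farthest, at -1.06, -1.04, -0.86, -0.86 and -0.84. Gins1, Gins2, Ube2c, Tyms and Pcna were nearest or above, at 0.19, -0.00, -0.15, -0.18 and -0.20. In vehicle embryos the SD had a median of 3.66% of the mean over the 39 genes, against 9.21% over all tested genes and 5.36% over those averaging 10 CPM or more. In FGF2 embryos it was 18.8% over the 39 genes, against 14.9% and 10.2%. Over the 39 genes, this ratio and the length of the longest annotated transcript had a Spearman correlation of -0.29, which describes genes that share the same 3 libraries. Over 8 length classes of the 15299 tested genes with at least 1 CPM in every library, the median ratio was between -0.05 and 0.07. From the shortest to the longest class it was 0.07, 0.06, -0.00, -0.02, -0.05, -0.04, -0.05 and -0.04, so the longer classes were slightly lower. The part of RNA quality in the low levels of FGF2 8 was not tested.

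Without FGF2 8 the genes went in both directions and 0 of 39 were called by edgeR, where 8.68% of all 22373 tested genes were called (4.31% higher and 4.38% lower). At an unadjusted p of 0.05, 6 were lower (Mcm2, Mcm7, E2f1, Aurka, Plk1 and Ube2c), against 12.7% of all genes, and 4 higher (Ccne1, Ccne2, Slbp and Ccnb2), against 12% of all genes. Mcm2 had the smallest adjusted p, at -0.22 ± 0.06 (SE, edgeR adjusted p = 0.0592). Ccne2 was at 0.26 ± 0.07 (edgeR adjusted p = 0.065) and Slbp at 0.20 ± 0.06 (edgeR adjusted p = 0.0681). The log2 fold change was below 0 for 24 genes and above 0 for 15, with a median of -0.10 for S-phase and -0.02 for mitotic genes. Rrm2, Mcm4, Ccne1, Tyms, Aurkb, Mki67, Birc5, Cenpe and Cenpf were above 0 without FGF2 8 and below 0 with it. Relative to all 3 vehicle embryos, both FGF2 6 and 7 were lower in 14 genes (35.9%), against 22.1% of all tested genes and 31.2% of those averaging 10 CPM or more. Both were higher in 6 (Rrm2, Ccne1, Ccne2, Slbp, Ccnb2 and Cdk1), against 21.5% and 17.8%.

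**Figure D3:**
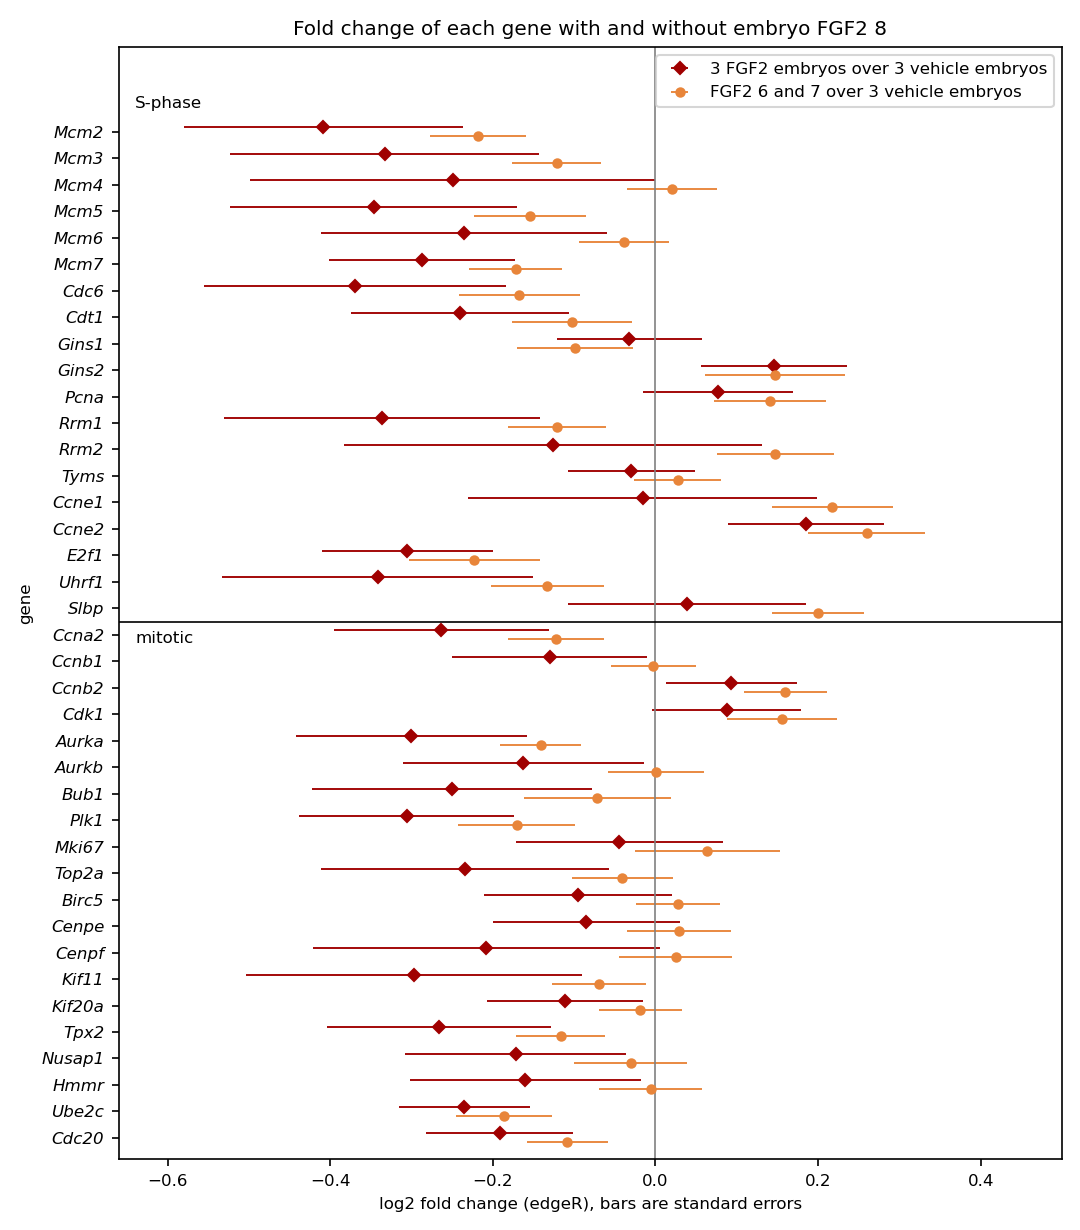
Log2 fold change of each gene over the 3 vehicle embryos from edgeR (horizontal axis, bars are standard errors), with all 3 FGF2 embryos (dark red diamonds) and with FGF2 6 and 7 (orange circles). Without FGF2 8 the values lie between -0.22 and 0.26, nearer to 0 for most genes, and none is past an adjusted p of 0.05 in either fit.

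The RPKM, which scale for gene model length, give the order of levels between genes. In vehicle embryos Ube2c was the highest at 90.3 ± 1.8 RPKM, followed by Mcm7 at 75.8 ± 1.06 and Pcna at 75.2 ± 3.44 RPKM (SD, n = 3 each). Mcm7 and Pcna do not differ beyond their spread. Mcm3 (70.8 ± 1.1), Uhrf1 (70.4 ± 4.89) and Ccna2 (70.2 ± 2.82 RPKM) came next and overlapped with each other. The lowest were Cdc6 at 8.02 ± 0.232, Ccne2 at 10.03 ± 0.349 and Hmmr at 12.2 ± 0.501 RPKM, and Hmmr did not differ beyond its spread from Ccne1 at 12.3 ± 0.169 RPKM. In FGF2 embryos Pcna was the highest at 82.5 ± 8.31 RPKM, then Ube2c at 79.2 ± 6.13 RPKM, and these overlapped. Cdc6 was again the lowest, at 6.46 ± 1.89 RPKM.

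Outside the 39 genes, 113 other genes of replication and mitosis were listed in 8 groups, of which 112 were tested. One fell, 0 rose and 111 did not pass, a share near the 0.951% of all tested genes that were called lower. It was Pold1, the catalytic subunit of DNA polymerase delta, which had 90.7, 89.9 and 76.4 CPM in FGF2 6, 7 and 8, against 117, 119.6 and 113 CPM in vehicle 7, 8 and 9 (log2 fold change -0.44 ± 0.09, edgeR adjusted p = 0.0369). The groups did not overlap. Its call was lost on leaving out FGF2 6, FGF2 7 or a vehicle embryo (edgeR adjusted p of 0.0734 to 0.178), with library totals alone, with the embryo number as a block, with sex as a covariate and in the 3 fits on RPKM (adjusted p of 0.0642 to 0.414). The median log2 fold change of the 112 genes was -0.13, against 0.01 for all tested genes and -0.04 for those averaging 10 CPM or more. FGF2 8 was the lowest embryo in 95 of the 112 (84.8%), against 28% and 36.3%. Group medians ran from -0.24 for regulators such as Foxm1, a transcription factor of mitotic genes (-0.47 ± 0.13, edgeR adjusted p = 0.11), to -0.10 for mitotic entry and exit. In that group Cdc25c, a phosphatase that activates Cdk1, was at -0.35 ± 0.08 (edgeR adjusted p = 0.0651). Foxm1 and Cdc25c were called as lower without FGF2 8 (edgeR adjusted p = 0.0284 and 0.0344), and with all 6 embryos by DESeq2 (adjusted p = 0.0234 and 0.00641) and by voom with sample weights (limma adjusted p = 0.0283 and 0.0181). These 3 fits called 8.68%, 9.76% and 10.3% of all tested genes in either direction. Called lower were 979 of 22373 genes (4.38%) without FGF2 8, 801 of 21983 with DESeq2 and 988 of 21983 with voom. Both genes were named for the smallest p of their group, and how many of the 112 these fits called is not given here.

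Of 13 regulators of G1, the phase before S phase, 1 rose, 1 fell and 11 did not pass, against 2.68% called higher and 0.951% called lower of all tested genes, with a median of -0.15. Cdkn1a, the p21 inhibitor of cyclin-dependent kinases, rose and had 17.2, 18.1 and 13.8 CPM in FGF2 6, 7 and 8, against 7.36, 7.62 and 7.05 CPM in vehicle 7, 8 and 9 (log2 fold change 1.16 ± 0.14, edgeR adjusted p = 0.00519). Ccnd2, a D-type cyclin of progenitors whose span overlaps 1 other, fell and had 581, 759 and 500.3 CPM against 1035, 1105 and 1129 CPM in the same order (-0.83 ± 0.15, edgeR adjusted p = 0.0293). In both genes all FGF2 embryos lay on one side of all vehicle embryos. The call of Cdkn1a was lost with embryo sex as a covariate (adjusted p = 0.172). That of Ccnd2 was lost on leaving out FGF2 6 or a vehicle embryo (edgeR adjusted p of 0.0919 to 0.131), with the embryo number as a block, with sex as a covariate and with unfiltered RPKM (0.068 to 0.398).

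Markers of cell types also differed between embryos, each list in its own way. The summed level of the 7 tested of 8 listed markers of postmitotic neurons, which do not divide, was 1474, 1598 and 2532 CPM in FGF2 6, 7 and 8, against 2056 to 2176 CPM in vehicle embryos, so the sum was highest in FGF2 8. The genes of this list did not go together in FGF2 8, which was the highest embryo for 3 of them (Tubb3, Dcx and Stmn2) and below all vehicle embryos for another 3 (Neurod6, Tbr1 and Bcl11b), with a median log2 ratio to the vehicle mean of -0.07. Of these 7, 0 passed in edgeR, with 4 lower and 1 higher at an unadjusted p of 0.05. The 10 radial glia markers summed to 2867, 2940.0 and 2407 CPM in FGF2 6, 7 and 8, against 2705 to 2950.0 CPM in vehicle embryos, with 2 fallen (Pax6 and Sox9) and 8 not passing. Vim was the most abundant of them, at 923 CPM in FGF2 8. FGF2 8 was the lowest embryo for 6 of the 10 and the highest for 1, Fabp7, at 319 CPM against 167 to 226 CPM in vehicle embryos. Sox2, Hes5 and Slc1a3 lay within the vehicle range in FGF2 8. The 6 intermediate progenitor markers summed to 628 to 774 CPM in FGF2 embryos, with FGF2 8 the highest of them, against 1028 to 1119 CPM in vehicle embryos, with 3 fallen (Eomes, Neurog2 and Nhlh1) and 3 not passing. No marker of these 3 lists was at 0. Of all tested genes 0.951% were called lower, and only 1 gene was with embryo sex as a covariate, so most of these falls were not called then. The part of these cell types in the levels of the 39 genes was not tested.

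Markers of neighbouring tissue differed between the groups too. Ventral telencephalon markers summed to 528 to 741 CPM in FGF2 embryos, against 65.6 to 178 CPM in vehicle embryos, with 6 of 9 risen, and Gsx1 was at 0 in all vehicle embryos. Choroid plexus markers summed to 156, 216 and 464 CPM in FGF2 6, 7 and 8, against 1.87 to 3.11 CPM in vehicle embryos, with 4 of 5 risen, and Folr1 was at 0 in vehicle 7 and vehicle 9. Most of the difference of this sum between FGF2 embryos was Ttr, at 59.1, 126 and 392 CPM in FGF2 6, 7 and 8. Otx2 ran the other way, at 74.5, 60.8 and 42.7 CPM, and FGF2 8 was the highest embryo for 3 of the 5. The 4 markers of meninges summed to 1633 to 1711 CPM in FGF2 embryos, against 2680.0 to 3076 CPM in vehicle embryos, with 2 fallen. The fallen genes were Col1a1 and Col1a2, which make up most of the sum. Foxc1 and Lum were not called, at log2 fold changes of 0.07 ± 0.15 and -0.11 ± 0.18 (edgeR adjusted p = 0.825 and 0.782). Endothelial markers were level, at 124 to 132 CPM against 118 to 129 CPM, with 0 of 3 called in edgeR (1 higher at an unadjusted p of 0.05). Microglia markers summed to 56.2 to 62.1 CPM against 41.5 to 49.7 CPM and erythroid markers to 2026 to 3606 CPM against 1787 to 2523 CPM in FGF2 and vehicle embryos, with 0 of 3 called in each (3 and 0 higher at an unadjusted p of 0.05). Of all tested genes, 2.68% were called higher and 0.951% lower. With embryo sex as a covariate, 4 genes were called higher and 1 lower over all tested genes. Most of the calls of these markers were therefore lost in that fit. Whether the sectioned regions differed between embryos was not tested.

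**Figure D4:**
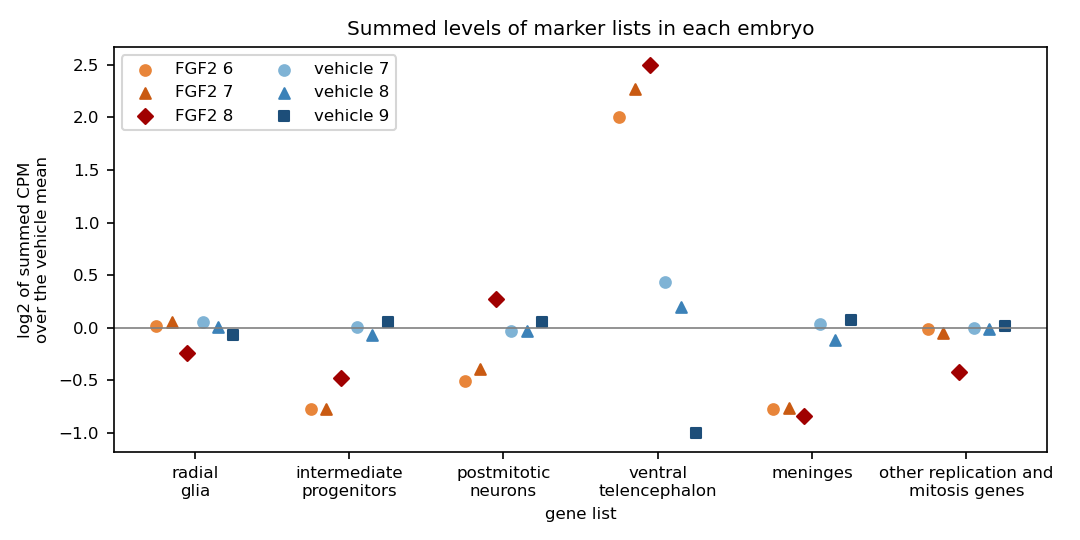
Summed CPM of marker lists in each embryo as the log2 over the mean of the vehicle embryos (vertical axis), with the other 112 replication and mitosis genes at the right. Points are single embryos. FGF2 8 is the lowest embryo for the replication and mitosis genes (-0.42) and for the sum of radial glia markers (-0.24). Of these 10 markers, 6 were lowest in FGF2 8 and 1 (Fabp7) was highest. FGF2 8 is the highest embryo for the sum of postmitotic neurons (0.27). Tubb3 is the most abundant gene of that list, and 3 of its 7 genes were highest in FGF2 8.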

How the data were processed

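Per the labels' protocols, total RNA was extracted from fixed cryosections, treated with DNase and sequenced as paired-end libraries, 1 for each of the 6 embryos. The build was NCBIM37 (mm9), and bedtools 2.12.0, Bowtie2 2.1.0.0, TopHat2 2.0.9 and CASAVA 1.8 are named without roles, per the submitters' processing notes. The deposited counts cover the span from gene start to end, introns included, as the files' columns show, with the use of strand not given in the sources used here, so genes in overlapping spans share reads. The deposited RPKM were made by the authors with a tool not given in the sources used here, and 34290 genes were matched to them through unique symbols. Neither was changed before testing.

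Counts were fitted with edgeR 4.0.16 in R 4.3.3 (filterByExpr, TMM scaling, robust quasi-likelihood fit, no covariate), with p-values adjusted over 21983 genes. The SE is the log2 fold change divided by the square root of the F statistic. Alternatives used DESeq2 1.42.0 and limma 3.58.1 (on voom values, and on log2(RPKM + 1) and log2(RPKM + 0.1)). The scripts were tested on simulated counts, where 34 of 100 genes changed 1.5-fold and 77 of 100 changed 2-fold were called. Small changes can thus be missed by this test. Mean levels of S-phase and mitotic genes used log2(CPM + 0.5) or log2(RPKM + 1). Ratios of FGF2 8 or of the mean of FGF2 6 and 7 to a mean have no pseudocount. Sex was read from 4 Y-linked genes, with over 1000 reads taken as male. Transcript lengths are of GENCODE M21. Gsx2 has 2 identifiers, of which the higher was used.

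Members and lists were chosen with earlier results of these data known. Values per embryo were given for the member with the smallest p and the member with the largest change in each role group, and for Pcna, Mki67, Ccnb1 and Cdk1. Other members given by embryo were chosen after their values were seen. Of each other list, called genes were to be named, at most 4, or else the 2 with the smallest p. Nothing in the labels says that the embryos came from separate litters. The p-values set the difference between the groups against the spread of these 6 embryos within their groups.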

Additional observations from a re-analysis of the deposited data

How the results depend on the processing

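Under the 19 alternatives, 0 of the genes tested were called, which are all 39 except over genes overlapping no other span, where 27 were tested (14 S-phase and 13 mitotic). The medians of S-phase and mitotic genes moved by less than the spread between embryos (pooled SD of 0.236 and 0.202). That spread includes FGF2 8. The SD of the mean levels was 0.305 and 0.266 in FGF2 embryos, against 0.022 and 0.027 in vehicle embryos. It is about as large as the medians themselves, so it cannot show that they were stable. Without FGF2 8 they were -0.10 and -0.02, against -0.24 and -0.18 as reported. The difference of the S-phase and mitotic means also moved by less than its spread (pooled SD of 0.042). This difference was not computed for genes overlapping no other span or with voom weights. The number of genes called over all tested genes, 799 as reported, moved to 5 with embryo sex as a covariate, 488 over genes overlapping no other span, 2145 with DESeq2 (62.7% of them higher, against 73.8% as reported), 2270.0 with voom and sample quality weights (56.5% higher), 432 and 431 with RPKM plus 1 and plus 0.1, and 271 with unfiltered RPKM plus 1 (84.5% higher). Leaving out 1 embryo gave 218 to 1943 called genes, the most without FGF2 8 (49.6% higher).

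Of the log2 fold changes of single genes, those that changed sign belonged to genes that were not called, and the cause was not tested. With library totals alone, Gins1, Tyms and Ccne1 were at 0.00814, 0.0129 and 0.0306. With RPKM plus 1, filtered or not, Gins1, Tyms and Mki67 were at 0.00498, 0.0282 and 0.0052, and with RPKM plus 0.1 at 0.00519, 0.0297 and 0.00507. With voom weights, Rrm2, Tyms, Ccne1, Mki67 and Cenpe were at 0.0885, 0.00403, 0.159, 0.0611 and 0.0227. Ccne1 was at 2.33e-05 when at least 1 CPM in 3 libraries was required and at 0.0316 with sex as a covariate. On leaving out 1 embryo, values spanned -0.406 to 0.0201 for Mcm4, -0.0987 to 0.00787 for Gins1, -0.295 to 0.147 for Rrm2, -0.0683 to 0.0272 for Tyms, -0.18 to 0.217 for Ccne1 and -0.0705 to 0.20 for Slbp. The spans were -0.00607 to 0.155 for Cdk1, -0.265 to 0.000933 for Aurkb, -0.162 to 0.0636 for Mki67, -0.184 to 0.028 for Birc5, -0.167 to 0.0289 for Cenpe and -0.356 to 0.0248 for Cenpf. The highest value was without FGF2 8 in each of these but Gins1.

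The embryo numbers 7 and 8 occur in both groups. The deviations of same-numbered embryos from their group means correlated at -0.058 and -0.029 over genes, against -0.039 to 0.045 for pairs with unlike numbers. No pair known to be related is there for comparison, so these values cannot tell whether same-numbered embryos are related, which was not tested. With the replicate block 703 genes were called, 0 of the 39 were called and 11 were lower at an unadjusted p of 0.05. The medians were then -0.36 for S-phase and -0.26 for mitotic genes, and Gins1 and Slbp were at 0.00565 and -0.0738.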
